A study of Mus musculus with 17 samples.

Results

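The 10 genes described here encode the ATPase VPS4 and the subunits of ESCRT-III, the membrane-cutting machine on which VPS4 acts. They are Vps4a and its paralog Vps4b, and the ESCRT-III genes Chmp1a, Chmp2a, Chmp2b, Chmp3, Chmp4b, Chmp5, Chmp6 and Chmp7, which are 10 of the 49585 gene identifiers counted in each library. Vps4a was chosen by its measured values in these libraries, being lower in the knockout at 2 weeks and not at 4 weeks. Its genotype differences are therefore given as a description with no test. The other 9 genes were added by function, as the paralog and the ESCRT-III subunits, and were read from a test across all genes.

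ESCRT-III proteins polymerise into filaments on the inner face of a membrane neck and narrow it until it is cut. They do this when cargo vesicles bud into endosomes, when daughter cells separate and when the nuclear envelope is resealed, and VPS4 uses ATP to pull subunits out of the filament so that it is remodelled and recycled. In endothelial cells, surface receptors such as VEGF receptor-2 reach the lysosome through endosomes of this kind.

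The libraries were made from bone marrow endothelial cells of wild-type (WT) mice and of knockout (KO) mice of the Cdh5:CreERT2-Eng f/f line, at 2 and 4 weeks after the knockout was induced with tamoxifen at 8 weeks of age. In the KO line, Cre recombinase under the endothelial Cdh5 promoter removes exons 5 and 6 of Eng, which encodes the TGF-beta family co-receptor Endoglin. Tamoxifen was given to all 4 groups per the labels, which leave unsaid if WT mice had the Cre transgene. Cells were sorted as CD45-, Ter119-, CD31+ and Sca1+ and sequenced by SmartSeq2, a full-length method without molecular identifiers. There were 4 WT libraries (f1, f4, m2, m3) and 4 KO libraries (f1, f4, m2, m3) at 2 weeks, and 5 WT libraries (f, f3, m1, m2, m3) and 4 KO libraries (f2, m1, m2, m3) at 4 weeks, where f is female and m is male. Titles give a sex and, except for WT f of 4 weeks, a number, but do not state that each library is a separate animal, so that the tests measure the spread between these libraries.

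Total counts ran from 20477400 to 40882715 per library. Libraries at 2 weeks had 10886 to 13583 genes with a count and 22.2% to 29.5% of counts from mitochondrial genes, against 15996 to 21235 genes and 4.66% to 8.99% at 4 weeks. Time and anything else that differed between these sets of libraries cannot be told apart. Eng was lower in every KO library than in every WT library of its time, at 225 to 347 against 705 to 1307 CPM (counts per 1000000 gene counts of a library) at 2 weeks and 274 to 1647 against 2400 to 2735 CPM at 4 weeks. The 7 endothelial markers checked, Pecam1 and Cdh5 among them, were above 0 in all 17 libraries. Their summed level was 4006 to 5428 CPM at 2 weeks and 8012 to 10400 CPM at 4 weeks, with no overlap.

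Part of the coding sequence of both paralogs is shown because it bears on whether reads of the pair can be told apart. Coding sequences taken from the GENCODE M21 transcripts (GRCm38) were 1314 bases long for Vps4a and 1335 bases for Vps4b, with 71.3% of aligned columns identical. The longest run of letters common to both was 14 bases, and no 50-base stretch of a Vps4a transcript occurred in a Vps4b transcript. The window below spans bases 100 to 189 of the Vps4a coding sequence and bases 106 to 195 of the Vps4b coding sequence around that run, with the 24 differing bases of the 90 in capitals.
Vps4a coding window: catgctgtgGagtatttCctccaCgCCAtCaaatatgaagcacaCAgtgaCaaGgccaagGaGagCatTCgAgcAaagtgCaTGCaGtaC
Vps4b coding window: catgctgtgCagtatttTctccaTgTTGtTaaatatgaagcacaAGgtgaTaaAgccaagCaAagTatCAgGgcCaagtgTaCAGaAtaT

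The promoters of the pair are shown because Vps4a, chosen by its levels, is set beside its paralog throughout. RefSeq windows of 300 bases on GRCm38.p6, 250 before and 50 after the annotated start, were found for 8 of the 10 genes, and Chmp6 and Chmp7 had no entry. The Vps4a window (chr8:107031019-107031318, plus strand) was 71.7% G or C, and the Vps4b window (chr1:106796676-106796975, minus strand) 47%. Capitals mark the GC box GGGCGG on either strand.
Vps4a promoter: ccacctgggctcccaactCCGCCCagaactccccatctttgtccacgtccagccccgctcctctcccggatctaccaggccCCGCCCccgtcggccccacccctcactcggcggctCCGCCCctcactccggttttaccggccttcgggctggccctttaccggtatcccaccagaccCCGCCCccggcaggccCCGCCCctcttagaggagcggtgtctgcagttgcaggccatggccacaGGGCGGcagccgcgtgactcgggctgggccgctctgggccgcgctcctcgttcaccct
Vps4b promoter: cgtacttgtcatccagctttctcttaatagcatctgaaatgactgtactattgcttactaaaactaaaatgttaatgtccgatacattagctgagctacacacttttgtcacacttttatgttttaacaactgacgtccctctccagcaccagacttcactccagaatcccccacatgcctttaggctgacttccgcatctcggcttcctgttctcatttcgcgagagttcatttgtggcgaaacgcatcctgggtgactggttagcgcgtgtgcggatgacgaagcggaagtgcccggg

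The GC box occurred 6 times in the Vps4a window and in no position of the Vps4b window. At least 1 match stood in 35.7% of the 32851 windows of that length, and 6 or more in 1.35%. Among the ESCRT-III genes, Chmp1a had 5 matches, Chmp5 had 3, Chmp4b had 1 and Chmp3 had 2 in one of its windows. Further motifs searched on both strands were the SMAD GC element GGCGCC, the E box CACGTG and the cyclic AMP element TGACGTCA, and neither VPS4 window held any of them. They stood in 11.9%, 7.15% and 1.79% of all windows. Matches of letters are a description and do not show that a factor binds.

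Vps4a (ENSMUSG00000031913, chr8:107031222-107045755, plus strand) encodes one of the 2 VPS4 ATPases. At 2 weeks its level in WT was 121 CPM in f1, 164 in f4, 120 in m2 and 112 in m3. In the KO libraries of that time it was 35.1 CPM in f1, 56.8 in f4, 46.5 in m2 and 34.4 in m3. The highest KO library was below the lowest WT library, in females and in males alike. At 4 weeks it was 114 CPM in WT f, 123 in f3, 120 in m1, 91.4 in m2 and 97.5 in m3, and in KO 113 CPM in f2, 131 in m1, 108 in m2 and 125 in m3. The 4-week groups overlapped, and no 4-week library of either genotype was as low as the highest 2-week KO library.

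The mean level of Vps4a was 129 ± 23.3 CPM (SD, n = 4) in WT and 43.2 ± 10.6 CPM (SD, n = 4) in KO at 2 weeks, a ratio of 2.99 of WT over KO. At 4 weeks it was 109 ± 13.9 CPM (SD, n = 5) in WT and 119 ± 10.8 CPM (SD, n = 4) in KO. The fitted log2 fold change of KO over WT was -1.57 (SE 0.28, 95% interval -2.23 to -0.91) at 2 weeks and 0.17 (SE 0.149, interval -0.17 to 0.50) at 4 weeks. The KO effect at 4 weeks less that at 2 weeks was 1.72 on the log2 scale (SE 0.272). These contrasts chose the gene, and no p is given for them. No gene of the 10477 tested at 2 weeks passed an adjusted p of 0.05 in edgeR (0%), and 276 had an unadjusted p under 0.05, while DESeq2 called 149. In a bulk sample, fewer cells of a type and less RNA per cell cannot be told apart.

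**Figure D1:**
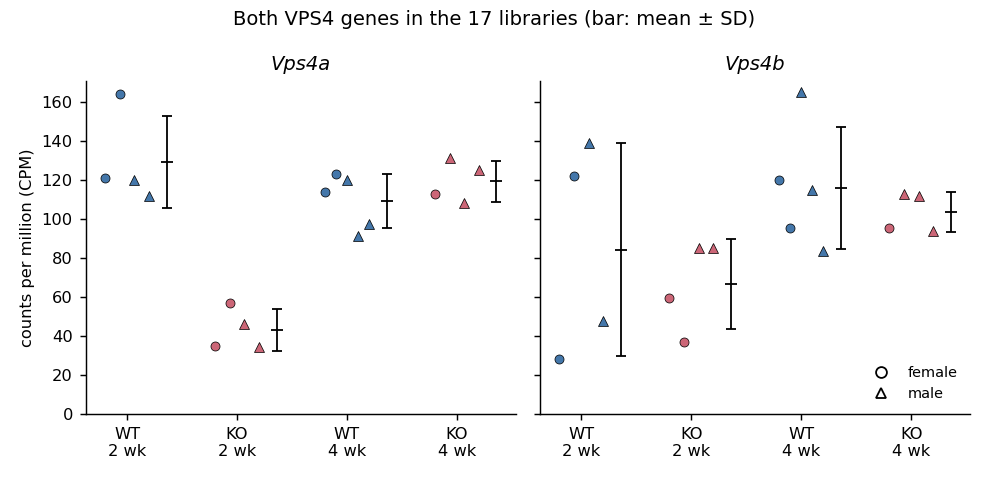
Levels of Vps4a and Vps4b in CPM (vertical axes) in each of the 17 libraries by genotype and time; circles are females, triangles males, and bars the mean ± SD of a group. The 2-week KO libraries of Vps4a lie at 34.4 to 56.8 CPM, below the 112 to 164 CPM of the 2-week WT libraries, whereas the Vps4b groups overlap at both times.

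Transcripts of other marrow cells differed between the same 2-week groups. The summed level of 8 neutrophil markers was 4025 CPM in KO m2 and 3122 CPM in KO m3 and 22.6 to 238 CPM in the other 2-week libraries. Of these markers Ltf, Lcn2 and Elane were at 0 in 3 of 4 WT libraries and 1 of 4 KO libraries. S100a9, Ngp, Camp and Mpo were at 0 in 1 of 4 WT libraries and in 0, 1, 0 and 2 KO libraries. S100a8 was above 0 in every 2-week library. Vps4a was at 35.1 and 56.8 CPM in KO f1 and f4, whose neutrophil sums were 107 and 238 CPM, and its log2 fold change without KO m2 and m3 was -1.65 (SE 0.424). The summed level of 6 erythroid markers was 61.4 to 195 CPM in 2-week WT and 278 to 1236 CPM in 2-week KO, with no overlap. Alas2 was at 0 in 3 of 4 WT libraries and 1 of 4 KO libraries, and Car1 in 3 and 2. The globin genes of this sum were above 0 in every 2-week library. The erythroid sum at 4 weeks was 157 to 1251 CPM (WT) and 610 to 2884 CPM (KO), with the Vps4a groups overlapping. The endothelial marker Tie1, a receptor tyrosine kinase, separated the 2-week genotypes too, at 602 to 936 CPM in WT and 223 to 550 CPM in KO, while the sum of the 7 endothelial markers overlapped, at 4122 to 5428 and 4006 to 4425 CPM. The part of these marker differences in the 2-week values of Vps4a was not tested.

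Vps4b (ENSMUSG00000009907, chr1:106764071-106796728, minus strand) encodes the other VPS4 ATPase and did not separate the genotypes. At 2 weeks it was at 28.4 CPM in WT f1, 122 in f4, 139 in m2 and 47.6 in m3, and at 59.7 CPM in KO f1, 36.9 in f4, 85.1 in m2 and 85.2 in m3. The WT libraries thus spanned the whole range of the KO libraries. At 4 weeks it ranged from 83.8 to 165 CPM (WT) and from 93.9 to 113 CPM (KO). KO over WT, its log2 fold change was -0.36 (SE 0.542, interval -1.65 to 0.92) at 2 weeks and -0.17 (SE 0.192, interval -0.60 to 0.27) at 4 weeks, each with an adjusted p of 1 in edgeR. The 2-week value turned to 0.23 without WT f4. The 2-week interval reaches as low as the Vps4a value, so a fall as large as that of Vps4a lies within it.

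Per length of annotated exon, Vps4a was the more abundant of the pair in all 17 libraries. Levels between genes are given as counts per exon base scaled to 1000000 per library (TPM). Vps4a made up 85.2% ± 8.02 of the summed Vps4a and Vps4b TPM in 2-week WT (SD, n = 4), 69.1% ± 10.9 in 2-week KO (SD, n = 4), 77.0% ± 4.26 in 4-week WT (SD, n = 5) and 80.2% ± 2.17 in 4-week KO (SD, n = 4). The 2-week shares overlapped, at 75.4% to 93.8% in WT and 58.7% to 84.5% in KO. The summed TPM of the pair did not overlap there, at 91.2 to 153 in WT and 37.9 to 50.7 in KO. The 4-week sums overlapped, at 115 to 166 for WT and 125 to 159 for KO. The order rests on annotated exon lengths of 2522 bases for Vps4a and 8905 bases for Vps4b. Of the summed counts, without length, Vps4a made up 63.7% ± 15.0 in 2-week WT, 40.4% ± 13.9 in 2-week KO, 49.0% ± 6.04 in 4-week WT and 53.5% ± 3.35 in 4-week KO (SD, n = 4, 4, 5 and 4), with single libraries from 28.7% to 81.0%. As Vps4a was chosen by its level, these shares and sums are not tested.

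The gene Pdf, which encodes the mitochondrial peptide deformylase, lies on the opposite strand at the 3′ end of Vps4a and covers 57 exon bases of it, 2.26% of the exon length. The strand setting of the authors' counting is not given in the sources used here, so reads of the pair may not be separable there. Pdf counts followed Vps4a counts, with 9.39 to 15.6 Pdf counts per 100 Vps4a counts in all 17 libraries. The mean ratio was 12.5 ± 0.622 in 2-week WT (SD, n = 4), 13.0 ± 2.83 in 2-week KO (SD, n = 4), 13.9 ± 0.849 in 4-week WT (SD, n = 5) and 13.7 ± 0.816 in 4-week KO (SD, n = 4). Pdf was at 14.1 to 20.9 CPM in 2-week WT and 5.11 to 5.62 CPM in 2-week KO, a separation like that of Vps4a. Its log2 fold change at 2 weeks was -1.57 with an SE of 1.03 and an adjusted p of 1 in edgeR. The difference of its KO effects was 1.68 (adjusted p = 0.445) in edgeR and 1.69 (adjusted p = 5.84e-12) in DESeq2. From 2 to 4 weeks in KO it was 1.30 (adjusted p = 0.141) in edgeR and 1.35 (adjusted p = 9.46e-14) in DESeq2. As Pdf counts follow those of Vps4a, which was chosen by its levels, these values are no independent support.

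**Figure D2:**
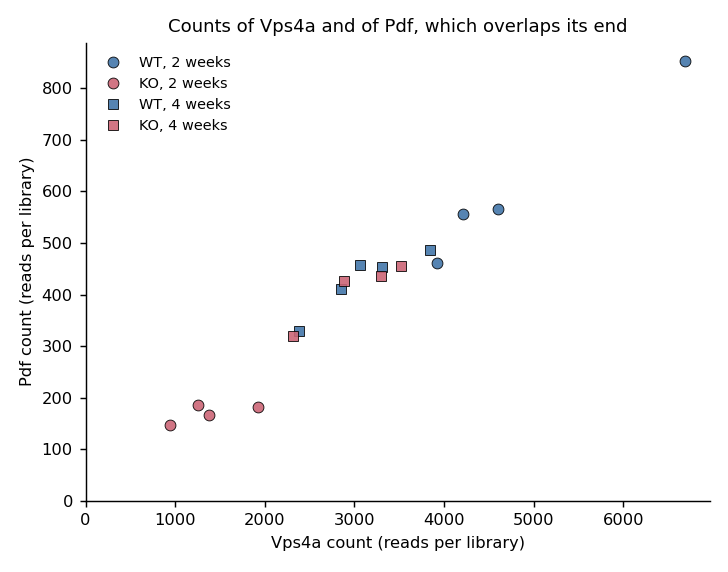
Counts of Pdf (vertical axis, reads per library) against counts of Vps4a (horizontal axis, reads per library); each point is 1 of the 17 libraries, colour is genotype and shape is time. The points lie along a line from the origin, and the 4 KO libraries of 2 weeks have the lowest counts of both genes.

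Across the 17 libraries Pearson's r between Pdf and Vps4a CPM was 0.973, within the 8 libraries of 2 weeks 0.987 and within the 9 of 4 weeks 0.861. The next genes along, Cog8 and Nip7, chosen after their values were seen, had r of -0.188 and 0.392 with Vps4a over the 17 libraries, -0.294 and 0.407 within 2 weeks, and 0.645 and -0.451 within 4 weeks. These correlations share depth and the time split and are given as a description. Other sharing of sequence was small. The share of 50-base stretches found in another annotated gene's transcript was 0.874% for Vps4a, 1.99% for Vps4b, 2.51% for Chmp2a, 5.12% for Chmp3 and 6.73% for Chmp1a, mostly in predicted genes, so counts of the last 2 are the least certain. Chmp3 also shares 96 exon bases with the antisense gene 1700040L08Rik.

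Among the ESCRT-III genes, none of the 8 separated the genotypes in CPM at either time. All 9 members other than Vps4a passed the filter on low counts in every comparison. At 2 weeks 0 of these 9 passed the adjusted threshold in edgeR, in the background of 0% of all genes named above. Further, 0 of the 9 had an unadjusted p under 0.05 and DESeq2 called 0, against 276 and 149 of all genes. At 4 weeks 0 of 9 passed, and 0 of all 15209 genes tested did (0%). There 0 of the 9 had an unadjusted p under 0.05 and DESeq2 called 0, against 422 and 17 of all genes. Eng, the deleted gene, did not pass in edgeR either, at -1.96 (SE 0.249, adjusted p = 0.612) at 2 weeks and -1.72 (SE 0.501, adjusted p of 1) at 4 weeks. Missing this threshold therefore does not show that the 9 were unchanged. DESeq2 did call Eng at 2 weeks (-1.96, adjusted p = 1.63e-13), so at that time the miss of Eng bears on edgeR only. The median log2 fold change of the 9 was 0.11 at 2 weeks and 0.01 at 4 weeks, against -0.06 and 0.01 for all genes. Their CPM ranges overlapped between genotypes in 9 of 9 cases at each time. In TPM, Chmp6 at 2 weeks narrowly did not, at 52.7 to 83.4 in KO and 83.7 to 123 in WT. Over all tested genes the CPM ranges failed to overlap for 3.36% at 2 weeks and 1.19% at 4 weeks, and no such share was taken in TPM.

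**Figure D3:**
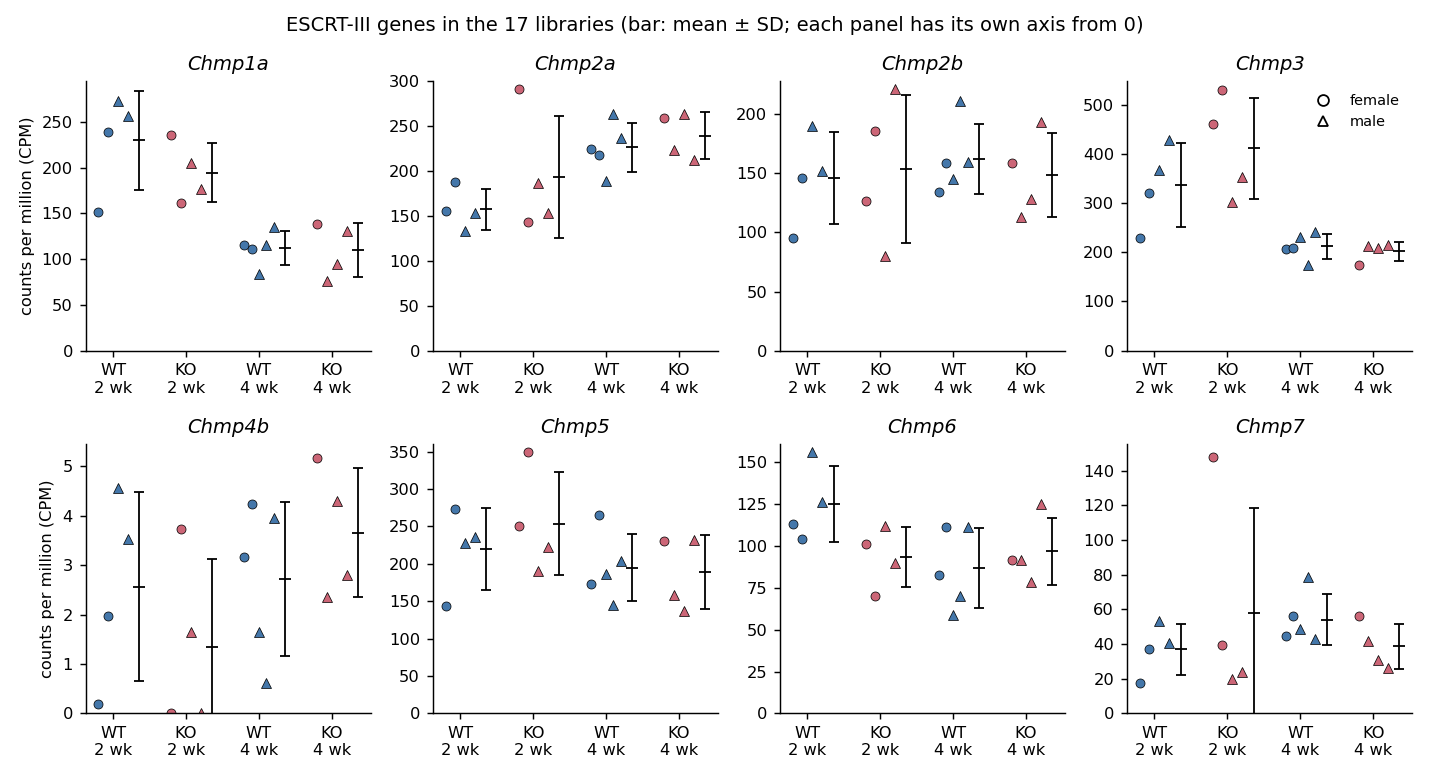
Levels of the 8 ESCRT-III genes in CPM (vertical axes, a separate scale from 0 in each panel) by genotype and time; circles are females, triangles males, and bars the mean ± SD, which end at the axis where they would pass below 0. WT and KO overlap in every panel at each time, and Chmp1a and Chmp3 are lower at 4 weeks than at 2 weeks.

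Chmp6, the subunit that links ESCRT-II to the filament, came closest of these genes to a genotype difference at 2 weeks. It was at 113 CPM in WT f1, 104 in f4, 156 in m2 and 126 in m3, and at 101 CPM in KO f1, 70.3 in f4, 112 in m2 and 89.7 in m3. The ranges met between 104 and 112 CPM. Its fitted log2 fold change was -0.41 (SE 0.208, interval -0.90 to 0.08), with an adjusted p of 1 in edgeR. At 4 weeks it was 0.20 (SE 0.258, interval -0.39 to 0.79).

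Chmp4b, the main filament-forming subunit, had the lowest level of the 10 genes in every group. It reached at most 5.18 CPM, and KO f1 and KO m3 of 2 weeks had 0 counts, which allows up to 0.112 CPM in the shallower of these libraries (3 counts, for counting error only). In 2-week WT its counts were 7 in f1, 81 in f4, 149 in m2 and 133 in m3, against 0, 127, 49 and 0 in KO f1, f4, m2 and m3. The log2 fold change of -0.74 carried an SE of 2.26 and an interval of -6.10 to 4.62, wide in both directions. It was -3.53 without KO f4 and 0.81 without KO m2 and m3. Counts differed between libraries of a group by more than counting error, as 0 and 127 counts in KO do. The 4-week ranges were 0.61 to 4.23 CPM for WT and 2.35 to 5.18 CPM for KO.

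The late-acting subunits Chmp2a, Chmp2b and Chmp3 help recruit VPS4 to the filament. At 2 weeks Chmp2a had 158 ± 22.9 CPM in WT and 194 ± 68.2 CPM in KO (SD, n = 4 each), and its log2 fold change was 0.28 (SE 0.238). Chmp2b was at 146 ± 39.1 CPM in WT and 153 ± 62.5 CPM in KO (SD, n = 4 each), with 0.11 (SE 0.374). Chmp3 was at 336 ± 84.9 CPM in WT and 411 ± 103 CPM in KO (SD, n = 4 each), with 0.29 (SE 0.264). The differences were smaller than the spread of the KO libraries for all 3 genes. At 4 weeks their log2 fold changes were 0.10 (SE 0.129), -0.11 (SE 0.211) and -0.08 (SE 0.136).

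Chmp1a and Chmp5 are regulatory subunits, and CHMP5 acts with the VPS4 cofactor encoded by Vta1. At 2 weeks Chmp1a had 230 ± 54.3 CPM in WT and 195 ± 32.7 CPM in KO, and Chmp5 had 220 ± 54.9 and 254 ± 68.7 CPM (SD, n = 4 each). Their log2 fold changes were -0.22 (SE 0.207) and 0.19 (SE 0.266) at 2 weeks, and 0.01 (SE 0.218) and 0.03 (SE 0.228) at 4 weeks. None of these 4 values exceeded 2 SE.

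Chmp7, which starts ESCRT-III assembly at the nuclear envelope, had 1 library far above the others at 2 weeks. At that time it was at 17.4 CPM in WT f1, 37.0 in f4, 53.1 in m2 and 40.4 in m3, and at 148 CPM in KO f1, 39.5 in f4, 19.8 in m2 and 23.9 in m3. Its log2 fold change was 0.35 (SE 0.835) over all 8 libraries, -0.37 without KO f1, -0.22 without WT f1, 0.85 without KO m2 and 1.75 (SE 0.878) without KO m2 and m3, so its direction depended on the libraries kept. Its 4-week range was 42.7 to 78.8 CPM in WT and 26.2 to 56.0 CPM in KO, and its log2 fold change there was -0.47 (SE 0.277, adjusted p of 1 in edgeR).

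**Figure D4:**
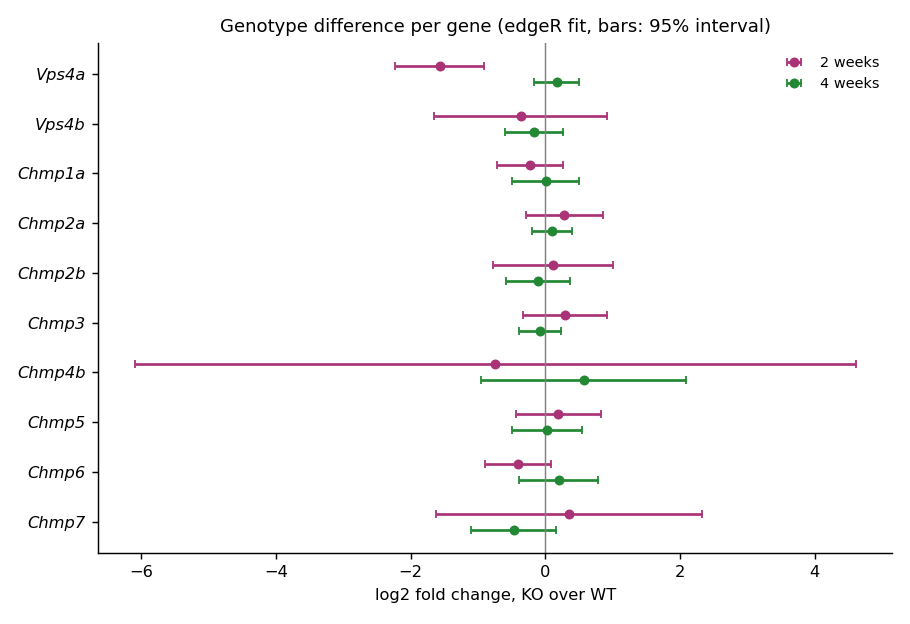
Log2 fold change of KO over WT (horizontal axis) for each of the 10 genes at 2 weeks and at 4 weeks; points are edgeR estimates and bars 95% intervals. Of the 20 intervals, only that of Vps4a at 2 weeks (-2.23 to -0.91) lies away from 0; Vps4a was chosen for that value, and Chmp4b has the widest interval.

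For the other 9 genes, the change of the KO effect from 2 to 4 weeks was read in the same way. Of these, 0 of 9 passed the threshold in edgeR, where 12 of 15703 genes (0.0764%) did, with 0 of the 9 at an unadjusted p under 0.05 and 0 by DESeq2. Over all 15703 genes, 1540 had an unadjusted p under 0.05 and DESeq2 called 1303. The median of the 9 was -0.18 on the log2 scale, against 0.03 for all genes. The values ran from -0.88 (SE 0.777) for Chmp7 to 1.56 (SE 2.24) for Chmp4b, and that of Vps4b was 0.12 (SE 0.553, interval -1.06 to 1.31).

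Between the times, 2 of the 9 genes fell and none rose, in WT and in KO alike. The 2 were Chmp1a and Chmp3 in both genotypes. In WT 1086 of 15703 genes passed the threshold (6.92%), 296 of them lower at 4 weeks (1.88%), and in KO 994 of 15703 (6.33%), with 234 lower (1.49%). These counts are of edgeR and moved with the method. DESeq2 called 3 of the 9 in WT and 2 in KO, against 2938 and 2873 of all genes. The median log2 fold change of the 9 genes, 4 weeks over 2 weeks, was -0.33 in WT and -0.41 in KO, against 0.42 and 0.49 for all genes, so the centre of all genes was shifted upward and the values below are on that shifted scale. Mean TPM, scaled by exon length, gave smaller falls or turned some upward, and is given beside them. Its total includes the mitochondrial genes, whose share of counts was higher at 2 weeks in every library.

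Chmp1a (ENSMUSG00000000743) was at 151 CPM in f1, 239 in f4, 273 in m2 and 256 in m3 of 2-week WT, and at 115 CPM in f, 111 in f3, 83.8 in m1, 115 in m2 and 135 in m3 of 4-week WT. In KO it was at 235 CPM in f1, 161 in f4, 205 in m2 and 177 in m3 at 2 weeks, and at 138 CPM in f2, 76.0 in m1, 94.5 in m2 and 131 in m3 at 4 weeks. Every 4-week library lay below every 2-week library of its genotype. From 2 to 4 weeks its log2 fold change was -1.35 (SE 0.231, adjusted p = 0.00355 in edgeR) in WT and -1.12 (SE 0.247, adjusted p = 0.0161) in KO. Mean TPM went from 133 to 85.2 in WT and from 107 to 79.4 in KO. Without KO m2 and m3 of 2 weeks, the KO value was -1.08 with an adjusted p of 0.084.

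Chmp3 (ENSMUSG00000053119) was at 228 CPM in f1, 320 in f4, 368 in m2 and 429 in m3 of 2-week WT, and at 174 to 241 CPM, median 208, in 4-week WT. In KO it was at 460 CPM in f1, 530 in f4, 303 in m2 and 352 in m3 at 2 weeks, and at 174 to 214 CPM at 4 weeks. The KO times did not overlap. The WT times overlapped through WT f1 of 2 weeks, but not in CPM over nuclear genes, at 311 to 593 against 185 to 258. Fitted values were -0.98 (SE 0.196, adjusted p = 0.00894 in edgeR) in WT and -1.36 (SE 0.218, adjusted p = 0.00265) in KO. Mean TPM went from 195 ± 49.4 (SD, n = 4) to 162 ± 18.5 (SD, n = 5) in WT, a smaller difference than the SD at 2 weeks, and from 229 to 148 in KO.

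Chmp6 in WT was next, at -0.82 (SE 0.243, adjusted p = 0.0576 in edgeR), and its adjusted p was 0.0137 in DESeq2 and 0.0324 without the 4-week WT library f3. In KO it was at -0.28 (SE 0.26). Chmp5 was at -0.48 (SE 0.249) in WT and -0.66 (SE 0.269, adjusted p = 0.152) in KO. Vps4b, Chmp2a, Chmp2b, Chmp4b and Chmp7 ranged from -0.33 (SE 1.49) to 0.23 (SE 0.172) in WT and from -0.66 (SE 0.575) to 1.23 (SE 1.59) in KO. None of these passed the threshold. In mean TPM some turned upward, Chmp5 in WT from 274 to 317, Chmp6 in KO from 69.2 to 94.3 and Chmp2b from 143 to 209 in WT and from 143 to 182 in KO. In mean CPM over nuclear genes these went down, Chmp5 in WT from 293 to 209 and Chmp6 in KO from 126 to 104. Chmp2b went from 194 to 173 in WT and from 210 to 160 in KO on that scale.

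Vps4a in KO was higher at 4 weeks, by 1.19 on the log2 scale (SE 0.202), and its 2-week and 4-week ranges of 34.4 to 56.8 and 108 to 131 CPM did not overlap. In WT its direction depended on the scale. The fitted value was -0.53 (SE 0.186) and mean CPM went from 129 to 109, whereas mean TPM went from 96.8 ± 20.3 (SD, n = 4) to 108 ± 13.9 (SD, n = 5). Mean CPM over nuclear genes, which leaves mitochondrial counts out, went from 172 ± 27.4 (SD, n = 4) to 117 ± 16 (SD, n = 5). Over all tested genes, CPM ranges of the 2 times did not overlap for 18.1% in WT and 23.3% in KO. Among the 10 members this held for Chmp1a and Chmp2a in WT, and for Vps4a, Vps4b, Chmp1a and Chmp3 in KO. This list depended on the scale. In CPM over nuclear genes alone, with mitochondrial counts left out, it held for Vps4a, Chmp1a, Chmp3 and Chmp6 in WT and for Vps4a, Chmp1a, Chmp3 and Chmp5 in KO. Chmp2a in WT then overlapped (173 to 245 against 204 to 281), as did Vps4b in KO (50.2 to 121 against 101 to 123). In TPM, Chmp1a overlapped between the times in both genotypes. The shares over all genes were taken in total CPM only, so the lists on other scales have no background to be set against.

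**Figure D5:**
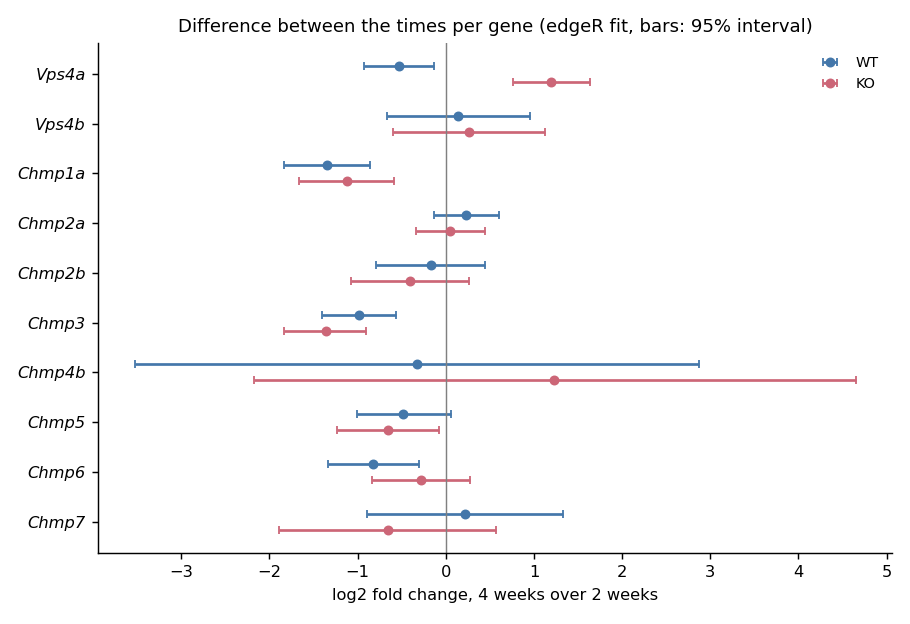
Log2 fold change of 4 weeks over 2 weeks (horizontal axis) for each of the 10 genes in WT and in KO; points are edgeR estimates and bars 95% intervals. Chmp1a and Chmp3 lie below 0 in both genotypes, while Vps4a lies at -0.53 in WT and 1.19 in KO.

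By mean TPM the genes fell into broad tiers in each group, and the order within a tier differed between the times. Chmp2a and Chmp5 had the highest group means, 256 to 491 and 274 to 317 TPM. Chmp3 and Chmp2b followed at 148 to 229 and 143 to 209 TPM, then Chmp1a at 79.4 to 133 TPM and Chmp6 at 69.2 to 96.8 TPM. Vps4a had group means of 96.8, 108 and 113 TPM in 2-week WT, 4-week WT and 4-week KO, beside Chmp6 and Chmp1a, and 31.0 TPM in 2-week KO, below both. Vps4b at 13.5 to 32.6 TPM, Chmp7 at 11.1 to 21.4 TPM and Chmp4b at 1.21 to 4.28 TPM were lowest. Neighbours in this order often did not differ beyond their spread. In 2-week WT, Vps4a was above Chmp6 in 2 of 4 libraries and Chmp5 above Chmp2a in 3 of 4, whereas in 4-week WT Chmp2a was above Chmp5 in 5 of 5. Chmp3 was above Chmp2b in 4 of 4 libraries of 2-week WT, and Chmp2b above Chmp3 in 5 of 5 of 4-week WT. Chmp1a had a higher mean than Chmp6 at 2 weeks and a lower one at 4 weeks in both genotypes.

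The spread within a group differed from gene to gene. The coefficient of variation of CPM was 18.0% and 24.6% for Vps4a in 2-week WT and KO, and 12.7% and 9.07% in 4-week WT and KO. For Vps4b it was 64.5% and 34.8% at 2 weeks, and 27.0% and 10.1% at 4 weeks. For Chmp7 it was 39.9% and 105% at 2 weeks, and 27.3% and 34.4% at 4 weeks. Chmp2a, Chmp2b, Chmp3 and Chmp4b also had the higher value at 2 weeks in both genotypes, as for Chmp3 with 25.2% and 25.0% against 12.3% and 9.41%. For Chmp5 the times were close, at 25.0% and 27.1% against 23.0% and 26.0%. Chmp6 and Chmp1a differed from this. For Chmp6 it was 18.0% and 19.1% at 2 weeks against 27.4% and 20.4% at 4 weeks, and for Chmp1a 23.6% and 16.8% against 16.5% and 26.9%.

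Upstream ESCRT genes, cofactors and adaptors, with the further ESCRT-III genes Chmp1b, Chmp4c and Ist1, were read from a list of 29 genes, 28 of which were found in the files; Vps28 is not analysed here. At 2 weeks 23 of the 28 were tested and 0 passed in edgeR, with 1 at an unadjusted p under 0.05 and 0 by DESeq2. Over all 10477 genes tested these counts were 0, 276 and 149. At 4 weeks 25 were tested with the same 3 counts, 0, 1 and 0, against 0, 422 and 17 over all 15209 genes. The median log2 fold change of the list was 0.27 at 2 weeks and 0.04 at 4 weeks, against -0.06 and 0.01 for all genes. For the difference of the KO effects 26 were tested and 0 passed, with 2 at an unadjusted p under 0.05 and 0 by DESeq2. Over all 15703 genes these counts were 12, 1540 and 1303.

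Vps37b, a subunit of the cargo-sorting complex ESCRT-I, had the smallest p of the list at 2 weeks. It was at 7.76 CPM in WT f1, 20.9 in f4, 20.7 in m2 and 8.01 in m3, and at 28.2 CPM in KO f1, 51.1 in f4, 63.6 in m2 and 44.0 in m3. Every KO library was above every WT library, which held for 1 of the 23 genes, beside the 3.36% of all genes with no overlap in either direction. The log2 fold change was 1.71 (SE 0.699, adjusted p of 1 in edgeR). At 4 weeks its ranges were 21.2 to 52.2 CPM in WT and 19.9 to 53.6 CPM in KO, and the difference of the effects was -1.78 (SE 0.715, adjusted p = 0.439).

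Mvb12a, another ESCRT-I subunit, was next at 2 weeks, at 115 ± 37.5 CPM in WT and 59.7 ± 32.8 CPM in KO (SD, n = 4 each), and its log2 fold change was -0.93 (SE 0.454, adjusted p of 1 in edgeR). The difference of its effects was 1.02 (SE 0.444, adjusted p = 0.467). At 4 weeks the smallest p-values were those of Stam2, an ESCRT-0 subunit, at -0.69 (SE 0.218), and Stambp, a deubiquitinase bound to ESCRT, at 0.64 (SE 0.286), each with an adjusted p of 1. No gene of the list, of 26 tested, passed between the times in edgeR. Over all 15703 genes, 3571 in WT and 3611 in KO had an unadjusted p under 0.05, and DESeq2 called 2938 and 2873. In WT, where 1 gene of the list had an unadjusted p under 0.05 and DESeq2 called 0, the smallest were Mvb12a at -0.83 (SE 0.307, adjusted p = 0.117) and Vps37b at 0.89 (SE 0.492, adjusted p = 0.327). In KO, where 1 gene of the list had an unadjusted p under 0.05 and DESeq2 called 1, they were the adaptor gene Ptpn23, adjusted p = 0.147, and the ESCRT-0 gene Hgs at 2.13 (SE 1.07, adjusted p = 0.262). Ptpn23 had counts of 0, 0, 0 and 10 in the 2-week KO libraries and 132 to 349 in the 4-week KO libraries.

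The genes whose log2 CPM was most like that of Vps4a over the 17 libraries, among 5094 genes with a mean log2 CPM of at least 4, were Spaar, Rasd1, Idh2, Pik3r6 and Tmem33. Their Pearson's r was 0.912, 0.904, 0.865, 0.86 and 0.858. Spaar was at 68.1 ± 12.4 CPM in 2-week WT and 19.8 ± 10.6 CPM in 2-week KO (SD, n = 4 each), and Rasd1 at 10.2 to 39.3 and 0 to 1.53 CPM. Idh2 was at 49.9 to 89.5 and 22.6 to 46.3 CPM. Vps4b ranked 1772 by this measure, at r of 0.319, and 317 by Spearman's rho, at 0.441, where Rasd1 ranked 599 at 0.373. The ESCRT-III genes that met the level, all but Chmp4b, lay between -0.539 for Chmp3 and 0.131 for Chmp6. These values are a description over libraries that share the time split.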

How the data were processed

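RNA of sorted bone marrow endothelial cells was measured in 17 libraries. The deposited tables hold whole-number counts for each gene, which the authors made with cutadapt, STAR and HTSeq 0.6.1p1 on GRCm38 or mm10, per the submitters' processing notes; strand and overlap settings are not given in the sources used here. Total counts were 20477400 to 40882715, so 3 counts, taken as the floor, were 0.0734 to 0.147 CPM; intervals and floors cover counting error only. Symbols came from GENCODE M21 (49326 of 49585 identifiers).

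Tests used edgeR 4.0.16 in R 4.3.3 (filterByExpr, TMM, quasi-likelihood, sex as a term, Benjamini-Hochberg over all genes, threshold 0.05). Each time was fitted alone, and all 17 libraries together for time and for the difference of effects. Alternatives were DESeq2 1.42.0, other scalings and filters, libraries left out, and a replicate block. The code was checked on simulated counts. One erythroid marker is not reported here and was left out of the marker sum. Members and lists were chosen with earlier results of these data known. Genes named were the members, genes overlapping them, the 5 most like Vps4a and, of other ESCRT genes, the 2 with the smallest p-values per comparison; others named (Cog8, Nip7, the markers, Ist1, Vta1, Pdcd6ip, Chmp4c and the 5 highest by Spearman's rho) were chosen after their values were seen or for a check.

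At 4 weeks, deviations of same-numbered WT and KO males had r of 0.332 (m1), 0.108 (m2) and 0.471 (m3), and WT m2 was most like KO m1. The main fits did not use the numbers, so the SEs, intervals and p-values of the Results are unpaired. A block on the numbers, in males only at 4 weeks, was fitted as an alternative. It changed no call in the KO against WT tests at either time and was not fitted for the difference of effects.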

Additional observations from a re-analysis of the deposited data

Results flagged for a closer look

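In 40 sets of libraries, each 1 of the 10 genes in 1 group, 2 held a library far from the others, as judged by its gap relative to the whole range, which chance gives in about 1 of 20. Chmp7 was at 148 CPM in the 2-week KO library f1, against 19.8 to 39.5 CPM in the other 3. Chmp3 was at 174 CPM in the 4-week KO library f2, the only female of that group, against 208 to 214 CPM in the males. For Vps4a, the fitted KO effect at 4 weeks less that at 2 weeks was 1.72 on the log2 scale. This contrast chose the gene, so a flag on it follows from that choice and is no independent support.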

How the results depend on the processing

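For the 9 genes other than Vps4a, 937 of 941 alternative values stayed on their side of the threshold. The exceptions were 3 for Chmp6 in WT between the times, whose adjusted p was 0.0137 in DESeq2, 0.044 without the sex term and 0.0324 without WT_4wk f3, and Chmp1a in KO without 2-week KO m2 and m3. There the count of the 9 genes called in KO went from 2 to 1; in WT it was 2 to 3 with 1 library left out. The log2 fold change of Vps4a at 2 weeks ran from -1.72 to -1.42 over 17 alternatives. Counts over all genes moved more. DESeq2 called 149 at 2 weeks, 17 at 4 weeks, 1303 for the difference of effects, 2938 in WT and 2873 in KO between the times. The joint fit called 31 at 2 weeks. Without the filter on low counts the difference, WT time and KO time gave 6, 580 and 567 genes, and with at least 10 counts in every library 0, 639 and 626. Without 2-week KO m2 and m3 the difference gave 251. With 1 library left out these counts ran from 7 to 51, 588 to 1261 and 504 to 1222. Of the other ESCRT genes between the times in KO, 1 was called by DESeq2 and 1 without KO m2 and m3, and 0 to 1 with 1 library left out (0 to 2 in WT). The cause was not tested. With Spearman's rho the 5 genes most like Vps4a by r had 0.6, 0.373, 0.542, 0.61 and 0.475, and the highest were Snx21, Nsfl1c, Tbpl1, Zfyve19 and Dnttip2. Of 80 alternative values of the mean levels, with CPM taken over nuclear counts or TMM sizes, 15 moved by over 1 SD.

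At 2 weeks the numbers shared by WT and KO did not pair the libraries (r of deviations -0.0264 to 0.0322), and the replicate block gave -1.59 for Vps4a and 0 genes called. With the 4-week males paired by number the Vps4a value was 0.25, with 0 genes called, and the block changed no other call in these 2 comparisons; the difference of effects was not fitted with it. The SE of the KO effect was larger at 2 weeks for 8 of the 10 genes, the exceptions being Chmp6 and Chmp1a (0.208 and 0.207 against 0.258 and 0.218). It was 2.26, 0.835 and 0.542 for Chmp4b, Chmp7 and Vps4b at 2 weeks and 0.671, 0.277 and 0.192 in the 4-week libraries, whose median total count was lower (26773453 against 35156440).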

Other observations

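Levels of 4 more genes that act with ESCRT-III, named after their values were seen, are given with no test of their own beyond the list above. Ist1, which encodes an ESCRT-III-like protein that binds VPS4, was at 98.4 ± 53.3 CPM in 2-week WT, 128 ± 63.5 CPM in 2-week KO, 121 ± 19.0 CPM in 4-week WT and 118 ± 16.2 CPM in 4-week KO (SD, n = 4, 4, 5 and 4). Vta1, which encodes the VPS4 cofactor, was at 22.9 to 60.0 CPM in 2-week WT and 23.5 to 66.9 CPM in 2-week KO, and at 43.0 to 86.0 CPM over both genotypes at 4 weeks. Pdcd6ip, which encodes the adaptor ALIX, was at 54.6 to 224 CPM in 2-week WT and 2.00 to 98.1 CPM in 2-week KO, which overlap. Chmp4c, a paralog of Chmp4b, was at most 15.6 CPM at 2 weeks, with medians of 0 in WT and 2.63 CPM in KO, and at 3.75 to 19.4 CPM at 4 weeks.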
